A study of Mus musculus with 37 samples.

Results

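The genes described here make and export ketone bodies in the liver. They are Bdh1, Acat1 and Slc16a1, chosen by name with earlier results of these data known, and all probes carrying those symbols were taken. The 3 genes were covered by 4 of the 30146 probes in the count table, 2 of them for Bdh1 and 1 each for Acat1 and Slc16a1, out of 21450 gene symbols in all. All 4 probes passed the filter on low counts, which left 18570 probes, and each was counted in every one of the 37 mice, at 126 to 3745 reads.

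Ketone bodies are made in hepatocyte mitochondria from the acetyl-CoA that fatty acid oxidation yields, and they leave the liver as fuel for muscle, heart and brain during fasting. Acat1 encodes the mitochondrial acetoacetyl-CoA thiolase, which stands at the entry to the pathway and also carries out the last cleavage of isoleucine breakdown. Bdh1 encodes the mitochondrial dehydrogenase that interconverts acetoacetate and β-hydroxybutyrate, and Slc16a1 encodes MCT1, a proton-coupled transporter of lactate, pyruvate and ketone bodies in the plasma membrane. In fasting liver, many genes of fatty acid oxidation and ketone body synthesis are known targets of PPARα, a nuclear receptor that fatty acids activate.

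Livers came from outbred wild-type Crl:CD1(ICR) mice gavaged once a day with deionized water as vehicle or with the ammonium salt of HFPO-DA, a short-chain perfluorinated acid, at a daily dose of 0.1 mg/kg, 0.5 mg/kg or 5 mg/kg. Males received 84 to 85 doses, over 70 days before mating and 14 days of mating. Females received 53 to 65 doses, from 14 days before mating until lactation day 20 or 21, and were older than the males when dosing began, so sex cannot be told apart from age, length of dosing or lactation. The TempO-Seq assay, which counts pairs of probes ligated on a transcript, was run on fixed liver sections, and the vehicle, low, middle and high dose groups held 5, 5, 5 and 4 males and 5, 5, 4 and 4 females. No label says that mice came from separate litters, so p-values measure the spread between these animals.

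Total counts ran from 2101495 to 10548222 in males and from 7952605 to 13878254 in females. They were lowest in males at 5 mg/kg (2101495 to 9098192, against 6947711 to 9365709 in male vehicle mice). All 8 hepatocyte markers examined were counted in every group, and their summed level was 13463 to 17481 CPM (counts scaled to a common library size) in males at 5 mg/kg against 17097 to 27763 in vehicle males, and 17159 to 22633 against 19836 to 27884 in females. Of these markers edgeR called 4 lower in males and 2 lower in females at 5 mg/kg. Of all genes, taken by their probe of highest count, 8.86% were lowered in males and 2.51% in females. The part of these markers in the values below was not tested. In bulk tissue, fewer cells of a type and less RNA per cell cannot be told apart.

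Slc16a1 rose in males at 5 mg/kg. The gene lies on chromosome 3 of mouse build GRCm38, from 104638668 to 104658462 on the plus strand, with 1 annotated transcript of 5 exons, and 2 intronic non-coding genes lie within it. The 250 bases before its RefSeq start (GRCm38.p6, chr3:104638414-104638663, plus strand) are shown because this gene changed most of the 3 at that dose in males. The window was scanned on both strands for AGGTCA, the hexamer that PPARα and its partner RXR bind as a direct repeat, and for the E-box CACGTG, the latter chosen after the window had been read. Capitals mark the E-box:
Slc16a1: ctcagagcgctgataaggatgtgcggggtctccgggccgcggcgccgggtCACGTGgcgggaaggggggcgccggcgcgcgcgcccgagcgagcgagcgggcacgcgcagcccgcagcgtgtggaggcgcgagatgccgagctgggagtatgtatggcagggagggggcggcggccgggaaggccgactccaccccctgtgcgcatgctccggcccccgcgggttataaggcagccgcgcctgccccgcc
AGGTCA was absent from these letters, and the single E-box began 200 bases before the start. Of 32851 such windows in the RefSeq table, 14.0% held AGGTCA, 6.02% held CACGTG and 11 held the direct repeat of AGGTCA spaced by 1 base. The window was 76.4% G and C with 37 CG dinucleotides, against medians of 52.4% and 6 over all windows.

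In vehicle males, Slc16a1 stood at 84.6, 118, 131, 131 and 160.0 CPM, scaled to the normalized library sizes. In males at 5 mg/kg it stood at 281, 393, 413 and 499 CPM, so all 4 treated mice lay above all 5 vehicle mice. The mean went from 125 ± 27.2 (SD, n = 5) to 397 ± 89.9 (SD, n = 4), a 3.18-fold rise with a 95% interval of 2.26 to 4.46. The log2 fold change was 1.67 (SE 0.24) with an adjusted p of 3.67e-06 (edgeR's quasi-likelihood test, Benjamini-Hochberg adjustment over all 18570 probes), against a median over all probes of -0.12. Here 12.7% of probes passed the threshold of 0.10 on the adjusted p, 4.21% were raised, and 2.78% had all treated mice above all vehicle mice. Slc16a1 and Acat1 were the 2 member probes that passed, both of them raised. The log2 fold change of Slc16a1 exceeded that of 92.0% of the tested probes.

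At the lower doses in males, the mean of Slc16a1 stood between those of the vehicle and the highest dose without passing the test. The 5 males at 0.1 mg/kg had 153, 159, 197, 210.2 and 226 CPM, and the 5 at 0.5 mg/kg had 111, 126, 182, 266 and 275 CPM. In each of these groups 2 mice lay inside the vehicle range and 3 above it. The log2 fold changes were 0.60 (SE 0.23, adjusted p = 0.624) and 0.62 (SE 0.23, adjusted p = 0.316). The means at 0.1 and 0.5 mg/kg, 189 ± 31.96 and 192 ± 76.5 CPM, differed by less than their SD. From 0.5 to 5 mg/kg Slc16a1 rose 2.06-fold (95% interval 1.47 to 2.89, log2 fold change 1.04, adjusted p = 0.00593), and all mice at 5 mg/kg lay above all mice at 0.5 mg/kg. It was the 1 member probe that edgeR called in that step, in which 8.73% of probes were called and 2.05% separated in this way. DESeq2 called 2 members there, and Bdh1_65762 was the other member with an unadjusted p under 0.05.

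**Figure D1:**
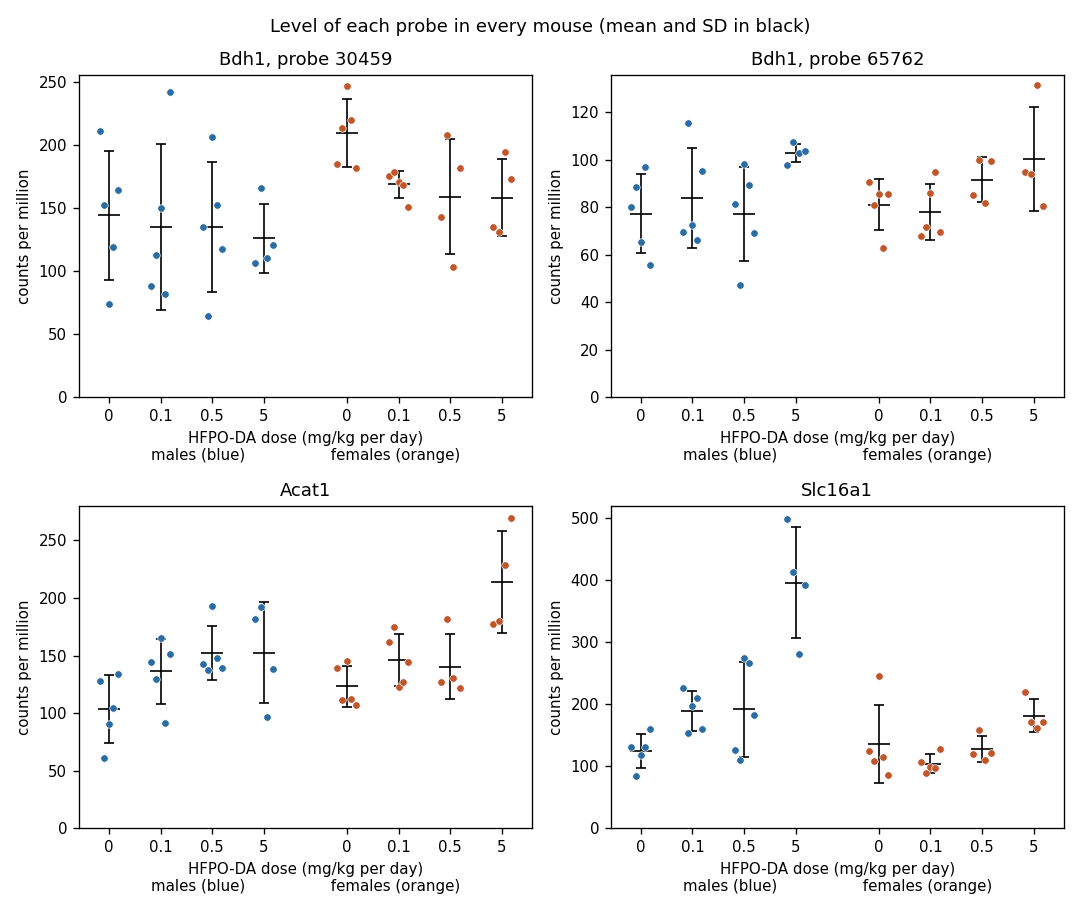
CPM of each member probe in every mouse, by sex and HFPO-DA dose in mg/kg per day. Points are mice and black bars are the group mean and SD (n = 4 or 5). Slc16a1 in males at 5 mg/kg sits at 281 to 499, above all other males, and 1 vehicle female sits at 245, apart from the other 4 at 86.3 to 125.

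In females, Slc16a1 did not pass the test at any dose. Vehicle females had 86.3, 109, 115, 125 and 245 CPM, and females at 5 mg/kg had 162, 171, 172 and 221 CPM. All 4 treated mice lay above 4 of the 5 vehicle mice and below the fifth, vehicle mouse 3. At 5 mg/kg the log2 fold change was 0.41 (SE 0.24, adjusted p = 0.565), a 1.33-fold difference with a 95% interval of 0.951 to 1.86. Without vehicle mouse 3, it was 0.72 with an adjusted p of 0.0698. Females at 0.1 mg/kg ran from 89.5 to 129 CPM and those at 0.5 mg/kg from 111 to 159 CPM, both inside the range of the vehicle mice. All 4 females at 5 mg/kg lay above all 4 at 0.5 mg/kg, as 4.09% of probes did, with a log2 fold change of 0.50 (adjusted p = 0.663).

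The male effect on Slc16a1 at 5 mg/kg exceeded the female effect by 1.26 on the log2 scale (SE 0.34, 95% interval 0.56 to 1.95), with an adjusted p of 0.106 that just missed the threshold. In that test of the difference between the sexes 0.63% of probes passed. The call depended on the processing and on single mice. Over 7 alternative settings the adjusted p was 0.0149 to 0.103 and passed in 6 of them, DESeq2 included. Leaving out 1 mouse at a time, it passed in only 3 of 18 fits (edgeR adjusted p = 0.0537 to 0.274, difference 0.93 to 1.39). The female effect that enters this difference was 0.41 with vehicle female 3 and 0.72 without that mouse. At 0.1 and 0.5 mg/kg the differences between the sexes were 0.99 (adjusted p = 0.952) and 0.71 (adjusted p = 0.952), with 0% and 0.0108% of all probes called. Among the 4 member probes edgeR called 0 differences at each of the 3 doses, Slc16a1 being the 1 probe with an unadjusted p under 0.05 each time, and DESeq2 called 0, 0 and 1.

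Other cell types of the liver were followed by marker lists beside the Slc16a1 values. The 5 stellate cell markers summed to 111 to 177 CPM in males at 5 mg/kg against 32.5 to 169.5 CPM in vehicle males, and to 82.5 to 374 CPM in females at 5 mg/kg against 48.0 to 460.1 CPM in vehicle females. The medians of these sums were 123 CPM in treated and 48.9 CPM in vehicle males, and 169 and 72.7 CPM in females. Over the 5 markers the median log2 fold change was 1.27 in males and 0.60 in females, against -0.11 and -0.02 over all genes. None of the 5 was called by edgeR in either sex, Lrat in males coming closest (adjusted p = 0.101). The 7 Kupffer cell markers summed to 30.8 to 144 CPM in treated and 45.2 to 169 CPM in vehicle males. The 4 adipocyte markers were at 0 in all males at 5 mg/kg and summed to 0 to 0.669 CPM in vehicle males. None of these 4 had enough counts to be tested. The 5 endothelial markers summed to 227 to 293 CPM in treated and 259 to 373 CPM in vehicle males, and to 206 to 286 and 279 to 312 CPM in females. Of them edgeR called Kdr, a growth factor receptor of these cells, lower in males (log2 fold change -0.95, adjusted p = 0.0708), where 8.86% of all genes were lowered. The 5 cholangiocyte markers summed to 5.10 to 33.8 CPM in treated and 2.79 to 63.4 CPM in vehicle males, and the 5 erythroid markers to 37.4 to 69.3 and 51.0 to 104 CPM. The part of these cell types in the Slc16a1 values was not tested.

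Acat1 rose at 5 mg/kg in both sexes, by 1.47-fold in males and by 1.74-fold in females. The gene lies on chromosome 9 from 53580522 to 53610382 on the minus strand, with 3 annotated transcripts of which 1 is coding, in 12 exons. Vehicle females had 107, 112, 112, 139 and 145 CPM, and females at 5 mg/kg had 177, 179.8, 229 and 269.8 CPM. All treated females lay above all vehicle females, as was the case for 4.4% of probes. The female mean went from 123 ± 17.5 (SD, n = 5) to 214 ± 44.1 CPM (SD, n = 4), with a log2 fold change of 0.80 (SE 0.20, adjusted p = 0.0149) and a 95% interval of 1.31 to 2.31 on the fold. Acat1 was the 1 member probe called in females at 5 mg/kg, where 4.52% of probes were called and 2.26% raised. Without treated mouse 4, the highest of the group, the log2 fold change was 0.66 with an adjusted p of 0.103.

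In vehicle males, Acat1 stood at 61.4, 90.3, 105, 128 and 134 CPM, and in males at 5 mg/kg at 96.8, 138, 182 and 192 CPM. The groups overlapped, since treated mouse 3, the shallowest of the 37 libraries, lay below 3 vehicle males. Acat1 had a log2 fold change of 0.56 (SE 0.21, 95% interval 0.14 to 0.97) with an adjusted p of 0.0855. The call was lost in turn without vehicle mouse 2, 3 or 4 or without treated mouse 1, 2 or 4 (adjusted p = 0.105 to 0.277), and also without the filter on low counts (0.131) and with each sex fitted apart (0.214).

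At 0.5 mg/kg, males had 137, 139, 142, 148 and 193 CPM of Acat1, all above the vehicle males. Such a separation was seen for 0.652% of probes, and the mean of 152 ± 23.4 CPM differed from that at 5 mg/kg (152 ± 43.8 CPM) by less than the SD. The log2 fold change of 0.55 (SE 0.19) had an adjusted p of 0.288, and DESeq2 gave 0.0955. At 0.1 mg/kg the log2 fold change was 0.40 (adjusted p = 0.686). In females it was 0.25 at 0.1 mg/kg and 0.19 at 0.5 mg/kg, both with an adjusted p of 1, and Acat1 did not pass the test between 0.5 and 5 mg/kg (log2 fold change 0.61, adjusted p = 0.302). In that step edgeR called 0 member probes and 1.48% of all probes, Acat1 was the 1 member with an unadjusted p under 0.05, and DESeq2 called 1. The male effect on Acat1 at 5 mg/kg minus the female effect did not pass the test (-0.24, 95% interval -0.83 to 0.35, adjusted p = 0.899).

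**Figure D2:**
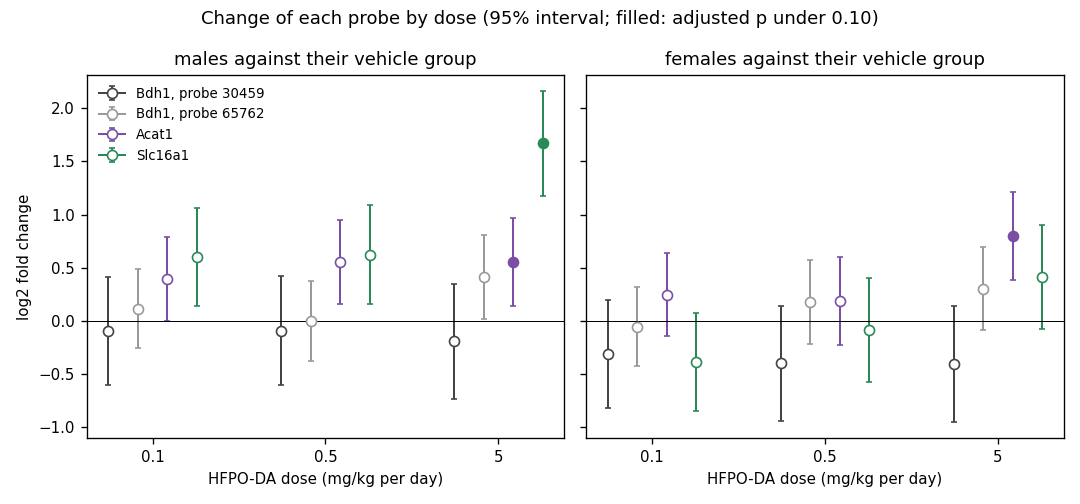
Log2 fold change of each member probe against the vehicle group of the same sex, by dose in mg/kg per day, with 95% intervals; filled points passed an adjusted p of 0.10. Slc16a1 (1.67) and Acat1 (0.56) are filled in males at 5 mg/kg, and Acat1 (0.80) in females at 5 mg/kg.

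Bdh1 passed the test at no dose in either sex, with either of its probes. The gene lies on chromosome 16 from 31422280 to 31458901 on the plus strand, has 7 annotated transcripts of which 4 are coding, and overlaps 1 antisense gene. RefSeq gives it 2 starts, and the windows before both are shown because the 2 probes of the gene differed and the positions of the probes were not analysed here. Neither window held AGGTCA or CACGTG, so that no letter is in capitals (GRCm38.p6, chr16:31422047-31422296 and chr16:31428503-31428752, plus strand):
Bdh1 start 1: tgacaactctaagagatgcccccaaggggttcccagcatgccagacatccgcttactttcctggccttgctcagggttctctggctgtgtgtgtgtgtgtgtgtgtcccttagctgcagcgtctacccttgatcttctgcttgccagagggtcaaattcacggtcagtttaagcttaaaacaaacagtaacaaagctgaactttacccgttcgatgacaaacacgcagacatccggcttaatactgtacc
Bdh1 start 2: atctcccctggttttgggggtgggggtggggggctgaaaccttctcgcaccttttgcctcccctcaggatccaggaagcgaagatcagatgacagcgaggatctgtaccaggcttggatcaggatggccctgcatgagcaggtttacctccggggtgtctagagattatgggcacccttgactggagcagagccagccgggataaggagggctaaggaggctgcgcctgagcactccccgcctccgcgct
They were 49.6% and 60.8% G and C, with 7 and 9 CG dinucleotides. Acat1 had no entry in the table.

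Probe Bdh1_30459 was highest in vehicle females, at 182, 185, 214, 220.3 and 247 CPM (mean 210 ± 26.8). Females at 5 mg/kg had 131, 135, 173 and 195 CPM, of which 1 lay inside the vehicle range and 3 below it. This gave a log2 fold change of -0.40 (SE 0.27, adjusted p = 0.697). At 0.1 mg/kg all 5 females, at 152 to 179 CPM, lay below all 5 vehicle females, as 0.474% of probes did, with a log2 fold change of -0.31 (adjusted p = 1). At 0.5 mg/kg females ran from 104 to 208 CPM.

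Males at 5 mg/kg did not leave the range of vehicle males for this probe. Vehicle males had 74.4, 119, 153, 165 and 211 CPM, and males at 5 mg/kg had 107, 111, 121 and 166 CPM. Their log2 fold change was -0.19 (95% interval -0.74 to 0.35, adjusted p = 0.754), and males ran from 82.0 to 242 CPM at 0.1 mg/kg and from 64.5 to 207 CPM at 0.5 mg/kg. The group coefficient of variation was 21.5% to 48.6% in males and 6.33% to 28.6% in females.

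Probe Bdh1_65762 had values of the opposite sign at 5 mg/kg. Vehicle males had 55.8, 65.5, 80.0, 88.6 and 96.9 CPM, and males at 5 mg/kg had 97.9, 103, 104 and 107 CPM. All treated males thus lay above all vehicle males, as 2.78% of probes did. The log2 fold change was 0.41 (SE 0.20, adjusted p = 0.192), and it passed with DESeq2 (0.0488) and with DESeq2's size factors in edgeR (0.0753). Vehicle females had 62.9, 81.0, 85.5, 85.7 and 90.6 CPM, and females at 5 mg/kg had 80.6, 94.1, 94.8 and 132 CPM. Of the treated females, 3 lay above every vehicle female and 1 inside their range, with a log2 fold change of 0.31 (SE 0.19, adjusted p = 0.652). With the counts of both probes summed, the male log2 fold change of Bdh1 at 5 mg/kg was 0.07.

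The ratio of the 2 Bdh1 probes compares them within each mouse and does not depend on library size. The log2 ratio of Bdh1_65762 over Bdh1_30459 was -1.81, -1.53, -1.40, -1.09 and -1.03 in vehicle females and -1.11, -0.57, -0.51 and -0.48 in females at 5 mg/kg. Of the treated females, 3 lay above all vehicle females and mouse 4 lay inside their range. The mean differed by 0.71 (two-sided exact permutation test, p = 0.0397, adjusted over both sexes 0.0794, smallest possible p 0.00794). Leaving out 1 mouse at a time, the adjusted p passed 0.10 without treated female 4 (0.0357) and missed it without each of the other 8 mice (0.114 to 0.143). In males the ratio was -1.56, -1.40, -0.79, -0.30 and -0.18 with vehicle and -0.63, -0.22, -0.13 and -0.11 at 5 mg/kg, a difference of 0.57 with overlapping groups (exact permutation p = 0.143; adjusted p = 0.0571 and 0.0857 without vehicle male 3 or 4). The female means at 0.1 and 0.5 mg/kg were -1.13 ± 0.23 and -0.75 ± 0.30, between those of vehicle (-1.37 ± 0.32) and 5 mg/kg (-0.67 ± 0.30). A ratio can show that probes changed unequally, not which of them changed, and here the male test did not pass and the female call depended on single mice.

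**Figure D3:**
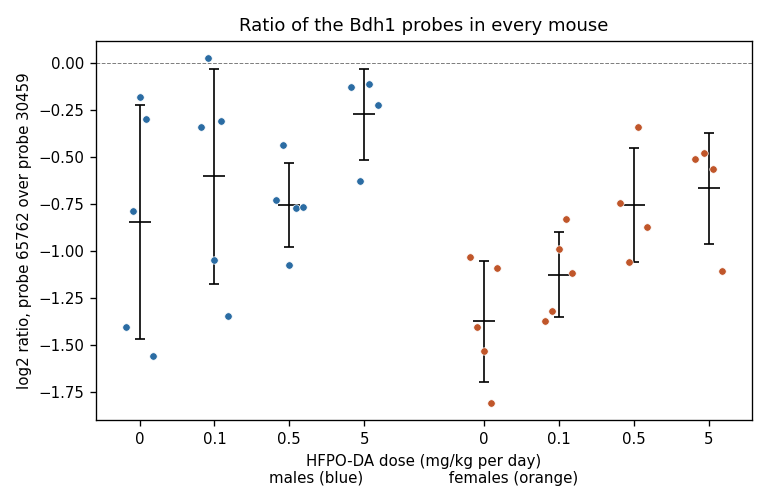
Log2 ratio of probe Bdh1_65762 over probe Bdh1_30459 in every mouse, by sex and dose in mg/kg per day, with group mean and SD in black (n = 4 or 5). The female means run from -1.37 with vehicle to -0.67 at 5 mg/kg, while the vehicle males are spread from -1.56 to -0.18.

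Across the 6 comparisons with vehicle, the member probes that edgeR called were all at 5 mg/kg, 2 for males and 1 for females. At 0.1 mg/kg edgeR called 0 of 4 member probes in each sex, with 0% of all probes called in males and 0% in females. In males at that dose 2 member probes, Acat1 and Slc16a1, had an unadjusted p under 0.05, in females 0, and DESeq2 called 0 in both. At 0.5 mg/kg edgeR again called 0 members, with 0.625% of all probes called in males and 0.113% in females, the same 2 members had an unadjusted p under 0.05 in males and 0 in females, and DESeq2 called 1 and 0. Between vehicle males and vehicle females edgeR called 0 members and 2.6% of all probes, and DESeq2 called 0. The lowest value there was that of Bdh1_30459, -0.54 for males against females (95% interval -1.05 to -0.03, adjusted p = 0.408), the 1 member with an unadjusted p under 0.05.

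**Figure D4:**
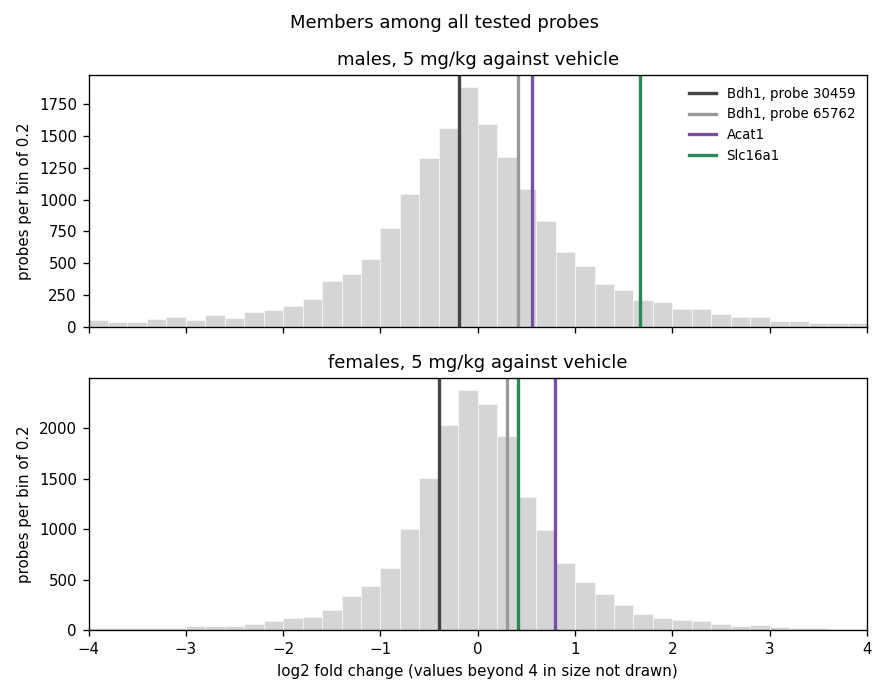
Distribution of the log2 fold changes of all tested probes at 5 mg/kg against vehicle, in males (top) and females (bottom), as probes per bin of 0.2, with each member probe as a vertical line. Slc16a1 lies at 1.67 in males and 0.41 in females, Acat1 at 0.56 and 0.80.

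The order of the group means put Slc16a1 highest in males at 5 mg/kg (397 CPM), and the gap to males at 0.5 mg/kg was larger than the SD of either group. The other 7 groups, from 192 down to 104 CPM, each differed from the next by less than the larger SD of the pair. For Acat1, females at 5 mg/kg (214 CPM) stood above males at 5 mg/kg (152 CPM) by more than the SD, and the rest, down to vehicle males at 104 CPM, were not separated from their neighbors. Bdh1_30459 was separated at the top, between vehicle females (210 CPM) and females at 0.1 mg/kg (169 CPM), and Bdh1_65762 nowhere, with means of 77.2 to 103 CPM.

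Among the other genes of ketone body handling, 9 were listed, 8 had a probe and 5 could be tested. At 5 mg/kg 1 of the 5 rose and 0 fell in males, and in females edgeR called 0, with 1 at an unadjusted p under 0.05 and 0 called by DESeq2. The median over the 5 genes, on the log2 scale, was 0.03 for males and 0.42 for females, against -0.11 and -0.02 over all genes. Over all genes, taken by their probe of highest count, the male comparison raised 4.65% and lowered 8.86%, and the female comparison raised 2.42% and lowered 2.51%. Oxct1, which starts ketone body use outside the liver, differed from vehicle by 0.03 (males, adjusted p = 0.995) and 0.84 (females, adjusted p = 0.779) on the log2 scale, at means of 4.54 to 9.61 CPM. Aacs, the cytosolic acetoacetyl-CoA synthetase, had -0.03 and -0.23 (adjusted p = 0.987 and 1).

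Of the transporters related to Slc16a1 and their chaperones, 15 were listed and 12 tested. At 5 mg/kg 2 rose and 1 fell in males, and 1 rose and 1 fell in females. The shares over all genes were 4.65% raised and 8.86% lowered in males, and 2.42% and 2.51% in females. Slc16a13, an MCT family member of the liver, rose in both sexes, from 1.71 ± 1.92 to 21.8 ± 10.5 CPM in males (log2 fold change 3.66, adjusted p = 0.00722) and from 0.943 ± 1.05 to 9.15 ± 1.28 CPM in females (3.28, adjusted p = 0.0295). Slc16a5 rose in males alone by the test, from 9.08 ± 6.56 to 34.1 ± 15.99 CPM (adjusted p = 0.0110), while females had 90.9 ± 28.01 and 52.5 ± 11.7 CPM (adjusted p = 0.624), and the sexes differed in this effect (2.70 on the log2 scale, adjusted p = 0.0827). Bsg, the chaperone that carries MCT1 to the membrane, did not pass in males (0.31 on the log2 scale, adjusted p = 0.371) or females (0.16, adjusted p = 0.981). The median was -0.27 in males, over the 11 genes counted in both groups, and -0.07 in females.

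The other thiolases are enzymes that cleave or join acyl-CoA as Acat1 does. At 5 mg/kg 4 of 7 rose in males and 5 of 7 in females, with 0 lowered by edgeR. Over all genes, 4.65% were raised and 8.86% lowered in males, and 2.42% and 2.51% in females. At 0.5 mg/kg 2 rose in each sex, where 0.423% of genes were raised in males and 0.123% in females. DESeq2 at that dose called 3 of the 7 for males and 1 for females. Acaa1b, a peroxisomal thiolase, rose at 5 mg/kg by 3.38 (males) and 3.48 (females) on the log2 scale, and its paralog Acaa1a had 1.66 and 2.34, with reads that near-identical copies may share. Hadhb, the thiolase subunit of the mitochondrial trifunctional protein, had 1.84 and 1.67, and the mitochondrial Acaa2 had 0.50 and 0.54. Scp2, a peroxisomal thiolase and sterol carrier, rose in females by 0.71, with 0.03 in males (adjusted p = 0.938). For Scp2 edgeR did not call the male effect minus the female effect (-0.68, adjusted p = 0.131). In that test DESeq2 called 1 of the 7 thiolases. The cytosolic Acat2 and Acat3 did not pass edgeR's test, at 0.09 and -0.55 in males (adjusted p = 0.865 and 0.253) and -0.46 and -0.76 in females (adjusted p = 0.272 and 0.199). DESeq2 called 6 of the 7 thiolases for females at 5 mg/kg, so Acat2, Acat3 or both were among them, and edgeR's values for both were negative. The median of the 7 was 0.50 in males and 0.71 in females.

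Isoleucine breakdown, the other route that ends in Acat1, gave 1 gene raised and 2 lowered of 9 in males at 5 mg/kg and 0 raised and 1 lowered in females. Over all genes, 4.65% were raised and 8.86% lowered in males, and 2.42% and 2.51% in females. Acadsb, the short branched-chain acyl-CoA dehydrogenase, fell in both sexes, from 91.0 ± 24.4 to 53.9 ± 22.2 CPM in males (adjusted p = 0.0363) and from 105 ± 12.7 to 59.7 ± 12.9 CPM in females (adjusted p = 0.0325). Dbt, a subunit of the branched-chain ketoacid dehydrogenase, fell in males from 31.3 ± 10.1 to 15.2 ± 13.9 CPM (adjusted p = 0.0503). Females had a log2 fold change of -0.69 for Dbt (adjusted p = 0.382), and the difference between the sexes did not pass (adjusted p = 0.922). Hsd17b10, which acts just before Acat1 in this route, rose in males from 4.40 ± 3.42 to 16.2 ± 8.13 CPM (adjusted p = 0.0278). Females had 7.80 ± 2.94 and 6.38 ± 2.46 CPM of Hsd17b10 (log2 fold change -0.29, not called). The difference between the sexes did not pass the test either (2.16 on the log2 scale, adjusted p = 0.316). Over the 8 genes counted in both groups, the median of the males was -0.59 and that of the females -0.25 on the log2 scale.

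**Figure D5:**
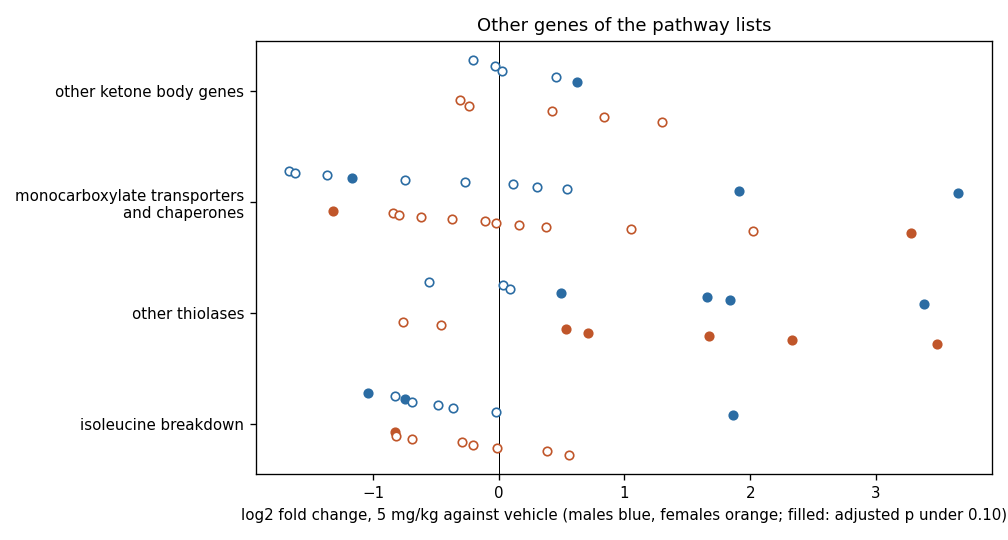
Log2 fold change at 5 mg/kg against vehicle for the tested genes of the 4 lists, males in blue and females in orange; filled points passed an adjusted p of 0.10, and genes at 0 in a group are not drawn. In the row of other thiolases 4 male and 5 female points are filled, all to the right of 0.

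The genes whose levels most resembled each member over the 37 mice, after each sex was set to a mean of 0, were found by Pearson's r of log2 CPM. For Slc16a1 they were Mtap (r = 0.84), Sept9 (0.83) and Hprt (0.79). For Acat1, passing over a gene that is not reported here, they were Acadvl (0.80), Atp5f1 (0.76) and Acsl1 (0.76). For Bdh1, by its probe Bdh1_30459, they were Atl3 (0.73), Rnf4 (0.72) and Lipa (0.71). These values describe the libraries, which share their doses and depths.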

How the data were processed

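Liver RNA of 37 mice was measured by TempO-Seq, in which probe pairs ligated on a transcript are amplified and sequenced. The authors sampled 5 mice per group, aligned the reads to the probe sequences and deposited 1 table of raw read counts per probe, without 3 of the 40 mice, which failed their quality criteria. The submitters' processing notes name bcl2fastq 2.17.1.14 and Bowtie; a genome build for the probes was not given in the sources used here. Repeated amplification makes reads more than molecules, so depth covers counting error only. Probes of the same gene differ in efficiency, and levels were therefore not compared between probes or genes.

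Groups came from the sample labels. From the deposited counts, probes were filtered with edgeR's filterByExpr (18570 of 30146 kept) and normalized by TMM, and 1 mean per group was fitted over all 37 mice by edgeR's quasi-likelihood test (edgeR 4.0.16, R 4.3.3), with Benjamini-Hochberg adjustment over all probes and calls at an adjusted p under 0.10. The study's methods used DESeq2, and DESeq2 1.42.0 was run as an alternative. CPM are scaled to TMM library sizes, and log2 CPM for the comparison of gene patterns used a prior count of 2. The ratio of the Bdh1 probes was taken as log2 of counts plus 0.5 and tested by exact permutation over mice. The fitting script was tested on simulated data. No library was identical to another. Mouse numbers follow the order of deposit and are only names.

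Coordinates were taken from GENCODE M21 (GRCm38), which held 21302 of the 21450 gene symbols, and promoter windows from RefSeq (GRCm38.p6), with 2 of the 3 genes present. The members and lists were chosen with earlier results of these data known. From each list, up to 4 genes called at 5 mg/kg in either sex were named, by smallest adjusted p. Acaa2 was named after its values were seen, as a further called thiolase, and Oxct1, Aacs, Acat2, Acat3 and Bsg were named for their roles. Results of some single genes of the lists are not reported here, though they stay in the counts. Alternatives were other size factors, filters, a robust fit, each sex apart, summed probes, thinned counts, DESeq2 and leaving out each mouse.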

Additional observations from a re-analysis of the deposited data

Results flagged for a closer look

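Within each group of 4 or 5 mice, the highest and the lowest value of each member probe and of the Bdh1 ratio were compared with the nearest neighbor by Dixon's criterion at the 95% level. Over 40 such groups 4 mice stood apart, and chance alone flags about 1 group in 20. Vehicle female 3 had 245 CPM of Slc16a1, against 86.3 to 125 in the other 4. For Acat1, female 2 at 0.5 mg/kg had 182 CPM, against 122 to 130.3 in the other 3, and male 3 at 0.5 mg/kg had 193 CPM, against 137 to 148 in the other 4. Female 4 at 5 mg/kg had a log2 ratio of the Bdh1 probes of -1.11, against -0.57 to -0.48 in the other 3.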

How the results depend on the processing

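The rise of Slc16a1 in males at 5 mg/kg kept its direction and passed the threshold in all 8 settings (log2 fold change 1.65 to 1.76) and without each of the 9 mice in turn (1.504 to 1.801), and that of Acat1 in females passed in all 8 settings. No paired analysis was possible because the labels give no replicate numbers that groups share.

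Acat1 in males at 5 mg/kg did not pass without the filter on low counts (0.55) or with each sex fitted apart (0.54), so that 1 member probe was called there in place of 2, as at an adjusted p under 0.05. Probe Bdh1_65762 in males at 5 mg/kg passed with DESeq2's size factors and with DESeq2 (0.52 in both), and DESeq2 called 1 member, Acat1, in males at 0.5 mg/kg. The difference between the sexes in Slc16a1 passed with DESeq2's size factors (1.33), no filter (1.26), a mean of at least 10 counts (1.26), summed probes (1.27), thinned counts (1.32) and DESeq2 (1.33), and missed with the robust fit. For Bdh1 in males at 5 mg/kg the summed probes gave 0.070, with -0.19 for Bdh1_30459 alone and 0.41 for Bdh1_65762 alone. The sign turned for Bdh1_65762 in males at 0.5 mg/kg, without the filter (-0.0018) and with thinned counts (-0.065). The cause was not tested.

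Leaving out 1 mouse at a time gave log2 fold changes for Acat1 at 5 mg/kg of 0.38 to 0.72 in males and 0.66 to 0.88 in females, 1 to 2 member probes called in males and 0 to 2 in females, and 0.29 to 0.72 for Slc16a1 in females (0.72 without vehicle female 3, 2 members then being called; 0 without treated female 4). The sex difference in Slc16a1 was 0.93 to 1.39 and passed without vehicle female 5, treated male 3 or vehicle male 5. Other ketone body genes called in males numbered 0 to 1 (0 without vehicle male 2 or 3 or treated male 2), and isoleucine breakdown genes 0 to 3 in males (1 without vehicle male 1, 0 without treated male 3) and 0 to 1 in females (0 without treated female 2 or 3). The Bdh1 ratio differed by 0.39 to 0.74 in males, passing without vehicle male 3 or 4, and by 0.60 to 0.85 in females, passing only without treated female 4 of the 9, with fewer arrangements to test. Values that changed sign, none of them called, were those of Bdh1_30459 in males at 0.1 mg/kg (-0.40 to 0.10) and 0.5 mg/kg (-0.29 to 0.10), of Bdh1_65762 in males at 0.1 mg/kg (-0.016 to 0.23) and 0.5 mg/kg (-0.10 to 0.13) and between vehicle sexes (-0.14 to 0.028), and of Slc16a1 in females at 0.5 mg/kg (-0.22 to 0.25) and between vehicle sexes (-0.25 to 0.22).

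Groups of 4 or 5 mice and male totals down to 2101495 limit the precision of these values. Probe positions were not used here, and levels are not comparable between probes.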
